A study of Mus musculus with 6 samples.

Results

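Monocytes carrying many transcripts of the chemokine genes Cxcl9 or Cxcl10 were described in tumours that a brain-metastatic breast cancer cell line formed in mice, either in the brain (BrM) or at an extracranial place, the mammary fat pad (MFP). The cells were chosen by their own UMI counts (a UMI marks 1 captured transcript). A cell needed at least 2 UMIs of Ly6c2 and 5 of Lyz2, which mark classical monocytes, and at most 5 UMIs of the macrophage genes C1qa, C1qb and C1qc together. It had to hold 0 UMIs of Retnlg and Cxcr2 (neutrophils), Flt3 (dendritic cells), Cd3e (T cells) and Cd79a (B cells), and at least 10 UMIs of Cxcl9 and Cxcl10 together. The rule found 311 cells among 46891 barcodes past the quality filter, or 0.663%. They are called chemokine-high monocytes, and the 561 cells that met every condition but the last are called chemokine-low monocytes.

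All mice were female C57BL/6J of 10 to 12 weeks, with no gene altered and no treatment named in the labels, and each site had 3 libraries. Tumours were digested with enzymes, and CD45-positive, DAPI-negative, RedDot1-positive cells, which are live nucleated leukocytes, were sorted, with 16000 cells loaded per library on the 10x Genomics 3' version 3 platform. A single tumour line implanted in both sites is the model, and there was no tumour-free group. No label ties a library to an animal of its own, and each p-value therefore speaks of the variation among the libraries, part of which could be technical.

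Cxcl9 and Cxcl10 are secreted chemokines that attract activated T cells and natural killer (NK) cells through the receptor Cxcr3. Interferon-gamma, made by those lymphocytes, induces Cxcl9 through GAS elements of promoters, while Cxcl10 also responds to type I interferon through ISRE elements, and to NF-kB. Monocytes that enter an inflamed tissue from blood can take on this interferon-driven state before or while they mature into macrophages.

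The chemokine genes lie close together on chromosome 5 of the mouse genome (GRCm38, GENCODE annotation), both protein coding and on the minus strand, Cxcl9 (ENSMUSG00000029417) from 92321347 to 92328079 and Cxcl10 (ENSMUSG00000034855) from 92346638 to 92348889. The 250 bases before each start site are shown because the cells were chosen on these genes and many cells held mainly one of them. The bases come from RefSeq (GRCm38.p6) at chr5:92328080-92328329 and chr5:92348890-92349139, minus strand, written 5′ to 3′. Capitals mark matches on either strand to ISRE (GAAANNGAAA or its complement TTTCNNTTTC), GAS (TTCNNNGAA, its own complement) or the NF-kB consensus.
Cxcl9: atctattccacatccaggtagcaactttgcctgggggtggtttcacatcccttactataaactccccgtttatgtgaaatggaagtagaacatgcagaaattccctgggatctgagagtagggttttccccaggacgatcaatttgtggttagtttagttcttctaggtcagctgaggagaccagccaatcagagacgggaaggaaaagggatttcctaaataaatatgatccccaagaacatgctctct
Cxcl10: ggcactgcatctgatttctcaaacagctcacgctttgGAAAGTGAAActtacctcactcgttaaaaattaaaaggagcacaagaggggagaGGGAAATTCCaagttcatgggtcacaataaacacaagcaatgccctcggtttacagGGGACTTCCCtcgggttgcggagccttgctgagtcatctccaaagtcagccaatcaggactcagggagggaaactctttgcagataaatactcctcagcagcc

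The Cxcl10 window held 1 ISRE match, which began 213 bases before the start, and 2 NF-kB matches, which began 159 and 103 bases before it. The Cxcl9 window held 0 matches to these letters, which says only that they are not in this window. Among the 27025 genes with a window in the table, 3.46% held an ISRE match, 8.13% a GAS match and 4.46% an NF-kB match.

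Libraries differed in composition before any comparison was made. BrM 1, MFP 1 and MFP 2 held 16 to 39 macrophages with 20 or more C1q UMIs and 2644 to 3147 T cells, while BrM 2, BrM 3 and MFP 3 held 1992 to 2271 such macrophages and 581 to 1042 T cells. Chemokine-high monocytes numbered 17, 53 and 145 across BrM 1 to 3 and 21, 7 and 68 across MFP 1 to 3. MFP 2, of 7 cells, was left out of every test that needed 10 cells, and its values are given only as a description. Total UMIs per library ran from 50692794 to 70944735. Of 46614 distinct barcodes past the filter, 263 occurred in more than 1 library, 0 barcodes were shared between chemokine-high cells, and 2 of their barcodes occurred elsewhere.

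The cells held the markers of classical monocytes. Ly6c2, a surface protein of these cells, averaged 1483 ± 491 CPM over the BrM libraries and 2103 ± 396 CPM over those of MFP (SD, n = 3 each; CPM are UMIs per 1000000 UMIs summed over the cells of a library). Lyz2, which encodes lysozyme, had 14821 ± 1653 and 18299 ± 3968 CPM, and both genes were part of the choice. Ms4a4c, a membrane protein gene that was not, was at 1958, 1728 and 1629 CPM in BrM 1 to 3 and 1209, 1745 and 1457 CPM in MFP 1 to 3, against 36.5 to 126 CPM in T cells. Chemokine-low monocytes held 799 to 1521 CPM of it and C1q macrophages 252 to 965 CPM. The 22 genes of the classical monocyte list summed to 16188 to 21815 CPM in chemokine-high cells and to 1852 to 2902 CPM in T cells. They summed to 14657 to 19266 CPM in chemokine-low monocytes, which overlapped, and to 6257 to 8584.5 CPM in C1q macrophages. T cells had 548 ± 67.4 CPM of Ly6c2 (SD, n = 6), so that gene alone does not mark a monocyte.

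Transcripts of other cell types were present as well, below the level in those cells where that was measured. In chemokine-high cells the macrophage list summed to 2565 to 5509 CPM with Lyve1 at 0, against 10426 to 26486 CPM in C1q macrophages. The microglia list reached 378 CPM with Sall1 at 0, and the B cell list 124 CPM with 5 of 9 genes at 0, Pax5 among them. The T cell list summed to 25.6 to 171 CPM, against 5578 to 6886 CPM in T cells. NK transcripts were uneven, with a list sum of 788 CPM in BrM 1, 893 CPM in MFP 1 and 80.7 to 185 CPM in the other libraries, against 2234 to 4785 CPM in T cells. Neutrophil genes reached 611 CPM in MFP 3 and stayed at or below 208 CPM elsewhere. The dendritic cell list summed to 618 to 953 CPM, against 412 to 503 CPM in T cells. It was at 657 to 1362 CPM in chemokine-low cells and 889 to 1273 CPM in C1q macrophages. Dendritic cells themselves were not measured as a reference. By a count chosen after these values were seen, 19 chemokine-high cells (6.11%) and 24 chemokine-low cells (4.28%) held at least 3 UMIs of 10 T and NK genes.

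Per cell, Cxcl9 and Cxcl10 together had a median of 38 UMIs (quartiles 21 and 84) and a maximum of 381. These counts chose the cells and carry no test. Cxcl10 exceeded Cxcl9 in 177 cells, Cxcl9 exceeded Cxcl10 in 134, and 0 were tied. The chemokines were often unequal within a cell. In 111 cells Cxcl10 was more than 10 times Cxcl9, in 68 cells the reverse held, and 123 cells had at least 5 UMIs of each. Cxcl9 was at 0 UMIs in 81 cells and Cxcl10 in 40. Spearman's rho between them, per 10000 UMIs, was -0.136 over the 311 cells and ran from -0.41 in BrM 2 to 0.14 in BrM 1 within libraries, a description of cells that share a library and a minimum sum. Just inside the threshold, 20 cells had 10 to 12 UMIs (median 2.0 Cxcl9 and 9.5 Cxcl10), and just outside it 44 monocytes had 7 to 9 (medians 1.5 and 7.0), while 281 chemokine-low cells had 0.

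**Figure D1:**
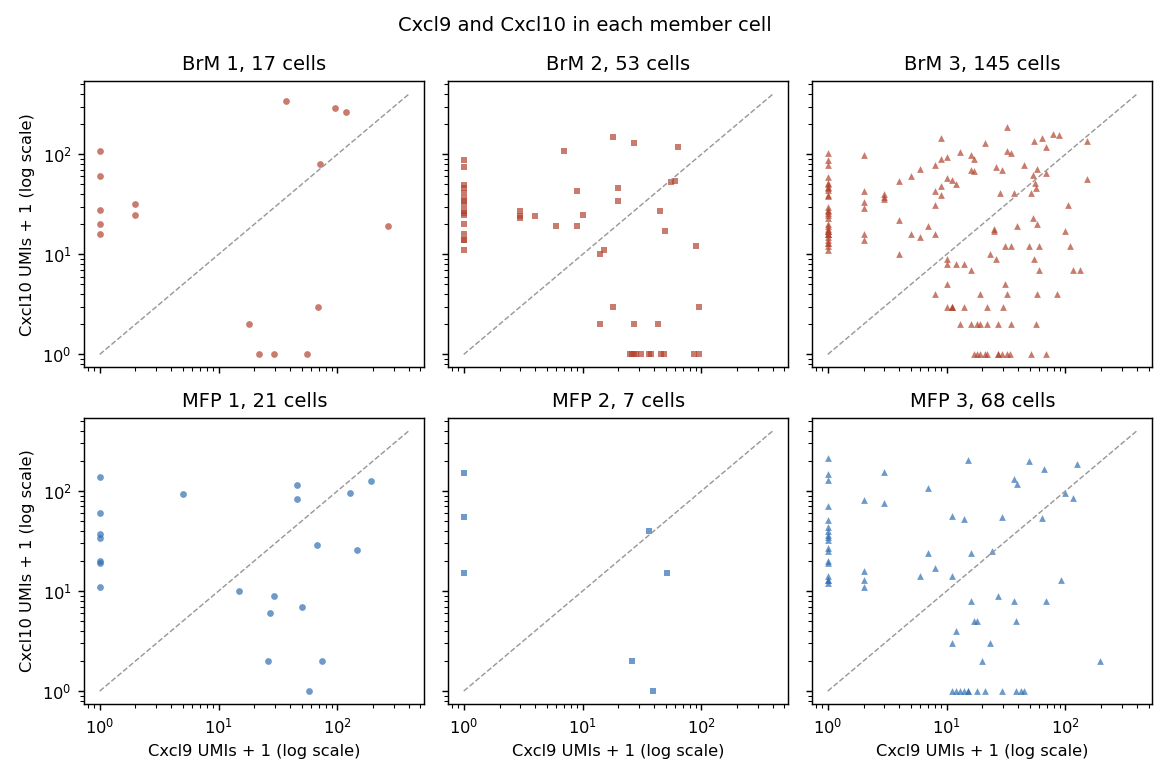
Each point is 1 chemokine-high monocyte, with Cxcl9 UMIs + 1 on the horizontal axis and Cxcl10 UMIs + 1 on the vertical axis, both logarithmic, and 1 panel per library; the dashed line marks equal counts. Points lie along both axes as well as near the line, since 81 cells had 0 Cxcl9 UMIs and 40 had 0 Cxcl10 UMIs.

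Summed over cells, BrM libraries averaged 3377 ± 384 CPM of Cxcl9 and 4953 ± 1063 CPM of Cxcl10, and MFP libraries 2952 ± 1326 and 4232 ± 289 CPM (SD, n = 3 each). Chemokine-low cells had 55.2 ± 49.6 CPM of Cxcl9 and 131 ± 61.6 CPM of Cxcl10 (SD, n = 6). T cells, which should lack Cxcl9, had 10.4 ± 12.2 CPM of it and 168 ± 88.3 CPM of Cxcl10. A Cxcl10 UMI was present in up to 36.8% of the T cells of a library and a Cxcl9 UMI in up to 11.2%, at median depths of 5325 to 7640 UMIs, and 1.88% to 5.99% of T cells reached 10 UMIs of both genes together. Chemokine-high monocytes had Cxcl10 UMIs in 79.2% to 95.2% and Cxcl9 UMIs in 57.1% to 77.9% of cells, at median depths of 6088 to 13636 UMIs. They were 0.0825% to 1.77% of the cells of a library and held 3.92% to 15.1% of its Cxcl9 and Cxcl10 UMIs. In BrM 2, BrM 3 and MFP 3, C1q macrophages held 48.8% to 59.0% of them.

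The share of monocytes that were chemokine-high did not differ between sites beyond the spread of the libraries. It was 34.7% (17 of 49; exact 95% binomial interval 21.7 to 49.6%), 30.5% (53 of 174; 23.7 to 37.9%) and 46.8% (145 of 310; 41.1 to 52.5%) in BrM 1 to 3. In MFP 1 to 3 it was 37.5% (21 of 56; 24.9 to 51.5%), 28.0% (7 of 25; 12.1 to 49.4%) and 26.4% (68 of 258; 21.1 to 32.2%). BrM 3 was the highest and the other 5 libraries overlapped. Intervals cover counting error of cells only. The means were 37.3% ± 8.47 and 30.6% ± 6.02 (SD, n = 3 each; exact permutation p = 0.4, two-sided, smallest possible 0.1). With every cell thinned to 3000 UMIs and a threshold of 3, the means were 44.3% ± 9.31 and 33.3% ± 6.93 (exact permutation p = 0.3). As a description with no test, since these counts chose the cells, 59.3% ± 4.69 of chemokine-high cells in BrM and 54.5% ± 6.04 in MFP held more Cxcl10 than Cxcl9 (SD, n = 3 each).

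The next comparison asked which other transcripts accompanied the chemokines. Counts were summed over the chemokine-high and over the chemokine-low cells of each library, and both sums of a library were compared within it. The 12 genes of the rule were left out; all other genes were counted in the same cells that the chemokine counts had divided, so this is a comparison of chosen cells, not of labelled groups. Of 5342 genes tested in 5 libraries, 279 (5.22%) were higher and 69 (1.29%) lower in chemokine-high cells at an adjusted p under 0.05 (edgeR's quasi-likelihood test, Benjamini-Hochberg). Median depth per cell was similar, at 6088 to 13636 UMIs in chemokine-high and 6198 to 10274 UMIs in chemokine-low cells. Every one of the 348 calls kept its direction in every alternative fit that tested it, and 134 stayed past the threshold in each fit that left out 1 library.

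Interferon-gamma response genes were higher as a group, on a list chosen, like the others, with earlier results of these data known. Of 26 on the list, 19 were tested and 16 were higher, 0 lower, with a median log2 fold change of 1.40 against -0.04 for all genes tested. Serpina3g, an inhibitor of cathepsins and other proteases and no member of the list, had the largest rise. It was at 203, 108 and 146 CPM in chemokine-high cells of BrM 1 to 3 and 246, 309 and 129 CPM in MFP 1 to 3, against 5.97 to 24.2 CPM in chemokine-low cells. The groups did not overlap (log2 fold change 2.87, SE 0.20, adjusted p = 1.7e-05). Upp1, which degrades uridine, was at 82.2 to 371 CPM against 0 to 19.4 CPM and changed alike, by 2.86 (SE 0.21).

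Gbp5, a guanylate-binding protein that helps assemble inflammasomes, was at 243, 113 and 182 CPM in chemokine-high cells of BrM 1 to 3 and at 256, 216 and 178 CPM in MFP 1 to 3. Chemokine-low cells held 11.9 to 82.1 CPM, so that all chemokine-high values were above all chemokine-low ones (log2 fold change 2.39, SE 0.20, adjusted p = 4.3e-05). The other called GTPases of these families ran from 0.94 for Gbp9 to 2.44 for Iigp1. Socs1, which feeds back to inhibit the JAK kinases, was at 87.7 to 216 CPM against 23.9 to 40.4 CPM (log2 fold change 2.13, SE 0.19). Calhm6, a membrane channel protein gene, was at 296 to 818 CPM against 77.6 to 126 CPM (2.09, SE 0.20). The transcription factor genes Irf8 and Irf1 rose by 1.44 and 0.94.

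The type I interferon list, antiviral genes that overlap with the genes interferon-gamma induces, had 24 of 34 tested members higher and 0 lower, with a median of 0.85. Ifit1, which binds foreign RNA, was at 581, 401 and 290 CPM in chemokine-high cells of BrM 1 to 3 and 110, 30.9 and 499 CPM in MFP 1 to 3. In chemokine-low cells it was at 76.0, 105 and 57.0 CPM and at 5.77, 23.9 and 65.1 CPM. Within each library the chemokine-high value was the higher one, with MFP 2 nearly level (log2 fold change 2.62 over the 5 tested libraries, SE 0.19, adjusted p = 1.7e-05). Rsad2, an antiviral enzyme gene, was at 851, 343, 278, 211 and 859 CPM in the 5 tested libraries against 116, 123, 109, 34.6 and 103 CPM (log2 fold change 2.27, SE 0.25). In MFP 2, with 7 cells, it was at 15.4 CPM against 35.8 CPM. Ifit2 and the DNA-sensing family gene Ifi205 rose by 2.06 and 2.02, and Ifi209 of that family by 0.86 (SE 0.09).

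Of the 10 genes with the largest rises, Iigp1 had no window in the table, and 6 of the other 9 held an ISRE match in the 250 bases before their start, and those stretches are shown with up to 20 bases on each side because the genes moved together. They come from RefSeq (GRCm38.p6), 5′ to 3′ on the strand of the gene: Ifit1 at chr19:34640765-34640833 (plus), Gbp5 at chr3:142496749-142496798 (plus), Rsad2 at chr12:26456543-26456592 (minus), Socs1 at chr16:10785584-10785639 (minus), Calhm6 at chr10:34128007-34128056 (minus) and Ifi205 at chr1:174031860-174031909 (minus). Capitals mark the ISRE matches, 2 in Ifit1 and 2 overlapping ones in Socs1.
Ifit1: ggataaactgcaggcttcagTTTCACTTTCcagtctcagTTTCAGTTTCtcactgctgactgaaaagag
Gbp5: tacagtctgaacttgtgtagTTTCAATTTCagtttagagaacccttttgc
Rsad2: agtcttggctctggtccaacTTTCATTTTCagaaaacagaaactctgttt
Socs1: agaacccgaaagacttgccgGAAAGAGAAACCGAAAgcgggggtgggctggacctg
Calhm6: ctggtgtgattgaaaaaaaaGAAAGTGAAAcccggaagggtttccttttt
Ifi205: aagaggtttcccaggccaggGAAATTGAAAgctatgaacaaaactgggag

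Windows were in the table for 219 of the 279 genes that were higher, and 38 of them (17.4%) held an ISRE match, against 3 of 53 (5.66%) of those that were lower and 192 of 4294 (4.47%) of all tested. GAS matches were in 23 of the 219 (10.5%), in 3 of 53 (5.66%) of those that were lower and in 292 of 4294 (6.8%) of all tested. Gbp5 also held 2 GAS matches and Serpina3g 1, while Upp1, with 3 windows, held 0 matches of any kind. A match is a description of the letters, not of bound protein.

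**Figure D2:**
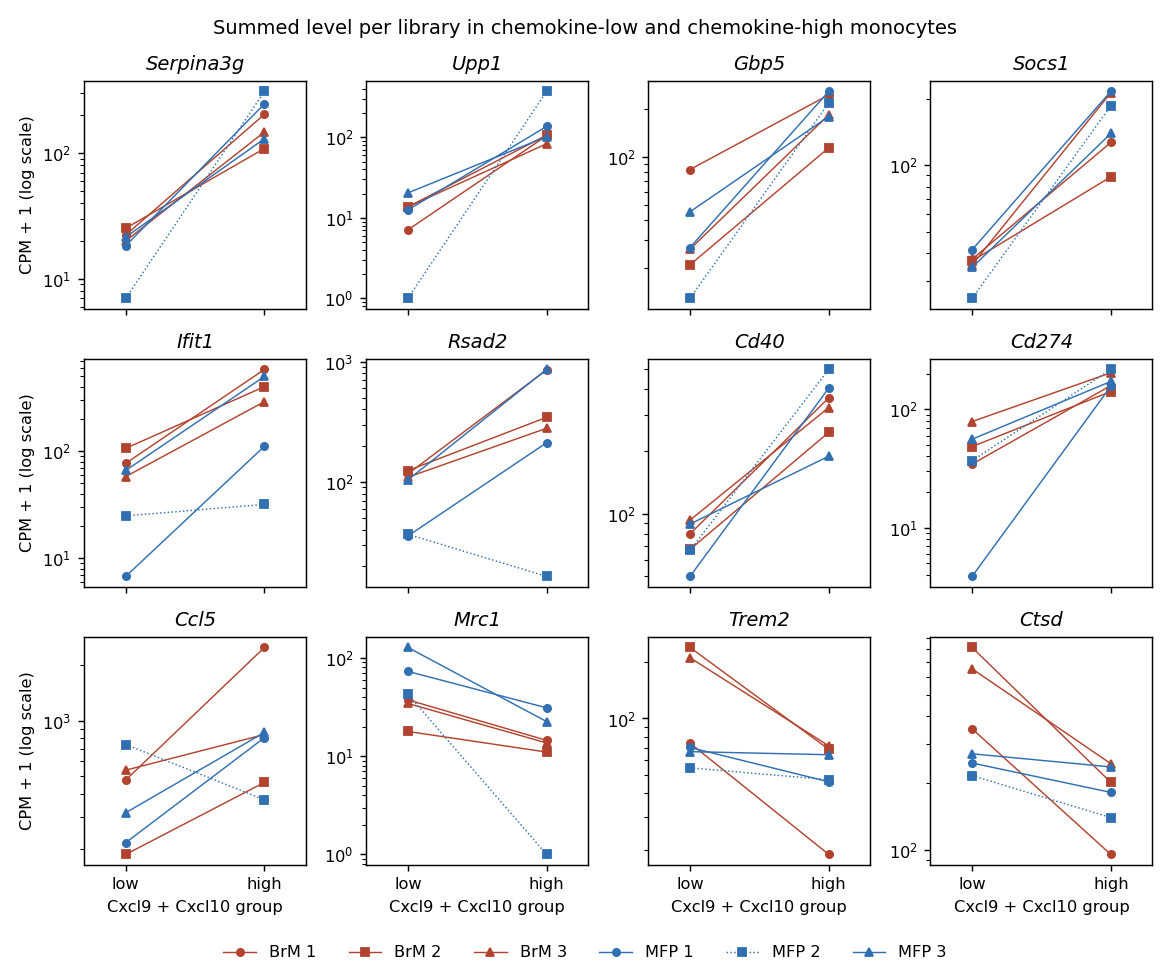
Each panel is 1 gene, with its level in CPM + 1 on a logarithmic axis in chemokine-low (left) and chemokine-high cells (right), and 1 line per library; MFP 2, drawn dotted, was not tested. Serpina3g, Upp1, Gbp5 and Cd40 were higher in chemokine-high cells of all 6 libraries, while Mrc1, Trem2 and Ctsd were lower there in all 6.

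Few signalling components passed the test. Of 17 tested members of the list, 3 were higher and 1 lower. Jak2, a kinase of the interferon receptors, was at 135, 128 and 138 CPM in chemokine-high cells of BrM 1 to 3 and 60.2, 139 and 130 CPM in MFP 1 to 3, against 51.9 to 82.4 CPM (log2 fold change 0.76, SE 0.13). It was higher within each library, and only the MFP 1 value lay within the chemokine-low range. Stat2, a transcription factor gene of the type I interferon signal, rose by 0.61. Ifngr1, the ligand-binding chain of the interferon-gamma receptor, was lower in each library, at 77.2 to 230 CPM against 211 to 376 CPM (log2 fold change -0.66, SE 0.13, adjusted p = 0.011).

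Genes that act on T cells were among those that rose. Of 13 tested cytokines and ligands, 6 were higher and 2 lower. Cd274, which encodes the checkpoint ligand PD-L1, was at 158, 140 and 202 CPM in chemokine-high cells of BrM 1 to 3 and 155, 216 and 171 CPM in MFP 1 to 3, against 2.88 to 77.8 CPM (log2 fold change 1.83, SE 0.25, adjusted p = 0.0012). Il15, a growth factor of NK and memory T cells, was at 36.0 to 67.2 CPM against 6.08 to 28.5 CPM (1.43, SE 0.23). Il1rn, the interleukin-1 receptor antagonist, rose by 1.44 (SE 0.20). The groups did not overlap in any of these 3 genes. Vsir, which encodes the inhibitory protein VISTA, was at 71.6 to 113 CPM against 109 to 236 CPM and fell by 0.82 (SE 0.15), and Tnfsf9, the ligand of 4-1BB, fell by 0.98.

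On the antigen presentation lists, class I genes rose and few class II genes passed the test. Of 19 class I genes, 9 were higher and 0 lower, led by Tap1, the peptide transporter, at 346 to 502 CPM against 199 to 306 CPM (log2 fold change 0.76, SE 0.10, adjusted p = 0.00077). The other 8 rose by 0.31 to 0.57, the immunoproteasome genes Psmb8, Psmb9 and Psmb10 among them. Of 12 tested class II genes, only the costimulatory genes Cd40 and Cd86 passed the test, and the list's median was -0.01. Cd40 was at 360, 246 and 323 CPM in chemokine-high cells of BrM and 401, 494 and 188 CPM in MFP, against 49.0 to 92.2 CPM (1.90, SE 0.20, adjusted p = 0.00026). Cd86 rose by 0.74 (SE 0.13).

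Besides the chosen chemokines, 2 of 11 tested chemokine genes were higher and 1 lower. Ccl5, a chemokine that NK and T cells also make, was at 2498, 461 and 840 CPM in chemokine-high cells of BrM 1 to 3 and 808, 371 and 862 CPM in MFP 1 to 3. Chemokine-low cells held 474, 187 and 537 CPM and 216, 741 and 315 CPM, and the groups overlapped, with BrM 1 far above the rest and MFP 2 the reverse of the others. The log2 fold change was 1.55 (SE 0.20, adjusted p = 0.00072). It was 1.23 without the cells that held T and NK transcripts and 1.35 without BrM 1, where the NK list summed to 788 CPM in chemokine-high and 252 CPM in chemokine-low cells. The NK list ran the other way in MFP 1 (893 and 1862 CPM), where Ccl5 was higher in chemokine-high cells, and in MFP 2 (185 and 926 CPM), where it was lower. Klrk1, an NK receptor gene, was at 225 CPM in BrM 1 and 59.2 to 130 CPM in the other libraries, and its log2 fold change of 1.11 was 1.25 without those cells. Cxcl16 rose by 0.89 (SE 0.20) and Ccl6 fell by 1.10 (SE 0.16).

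Inflammatory and metabolic lists rose in part. Of 22 NF-kB genes, 7 were higher and 0 lower. Sod2, the mitochondrial superoxide dismutase, was at 571 to 1043 CPM against 138 to 464 CPM, without overlap (log2 fold change 1.59, SE 0.21). Tnfaip2 and the adhesion gene Icam1 rose by 1.05 and 0.69. Of 17 inflammasome and cell death genes, 7 were higher and 0 lower, including the death receptor gene Fas (1.46), Daxx (1.35), the DNA sensor gene Aim2 (0.82), Casp4 (0.76) and Casp1 (0.56). Of 19 hypoxia and glycolysis genes, 9 were higher and 0 lower. The glucose transporter gene Slc2a1 was at 140 to 219 CPM against 46.1 to 133 CPM (0.92, SE 0.16), and Hk2, Pfkp, Tpi1, Pgk1, Pgam1 and Ldha, enzymes of glycolysis, rose by 0.38 to 0.88.

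Macrophage and lysosome genes were lower. Of 10 tested macrophage genes, 6 were lower and 0 higher, with a median of -0.73, and 4 of 20 lysosome genes were lower. The macrophage list also summed unevenly in chemokine-low cells, at 11357 to 12856 CPM in BrM 2 and BrM 3 and 2856 to 5001 CPM in the other libraries, and its part in these falls was not tested. Mrc1, a mannose receptor, was at 13.5, 10.0 and 12.6 CPM in chemokine-high cells of BrM 1 to 3 and 30.1, 0 and 21.5 CPM in MFP 1 to 3, against 36.5, 16.9 and 33.5 CPM and 72.1, 41.8 and 127 CPM. It was lower within each library (log2 fold change -1.77, SE 0.26, adjusted p = 0.0017). Trem2, a lipid receptor gene, was at 18.0, 67.6 and 70.6 CPM in BrM against 73.0, 237 and 209 CPM, and at 45.1, 46.3 and 63.2 CPM in MFP against 69.2, 53.8 and 65.7 CPM (-1.13, SE 0.25, adjusted p = 0.020). The gap was wide in BrM and narrow in MFP 2 and MFP 3. The lysosomal protease gene Ctsl fell by 1.05 (SE 0.16) and Ctsd fell by 1.13 (SE 0.24).

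Monocyte identity genes moved both ways, with 3 higher and 2 lower of 22. Plac8 was at 4629 to 6886 CPM against 3344 to 5292 CPM (log2 fold change 0.50, SE 0.07), Ly6i rose by 1.03 and Ms4a4c by 0.45. Ccr2, the receptor that draws monocytes out of the marrow, fell by 0.56, and Thbs1, which encodes a matrix glycoprotein, fell by 1.30. Of 20 dissociation stress genes, 2 were lower and 0 higher, Fos by 0.32 and Fosb by 0.45.

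**Figure D3:**
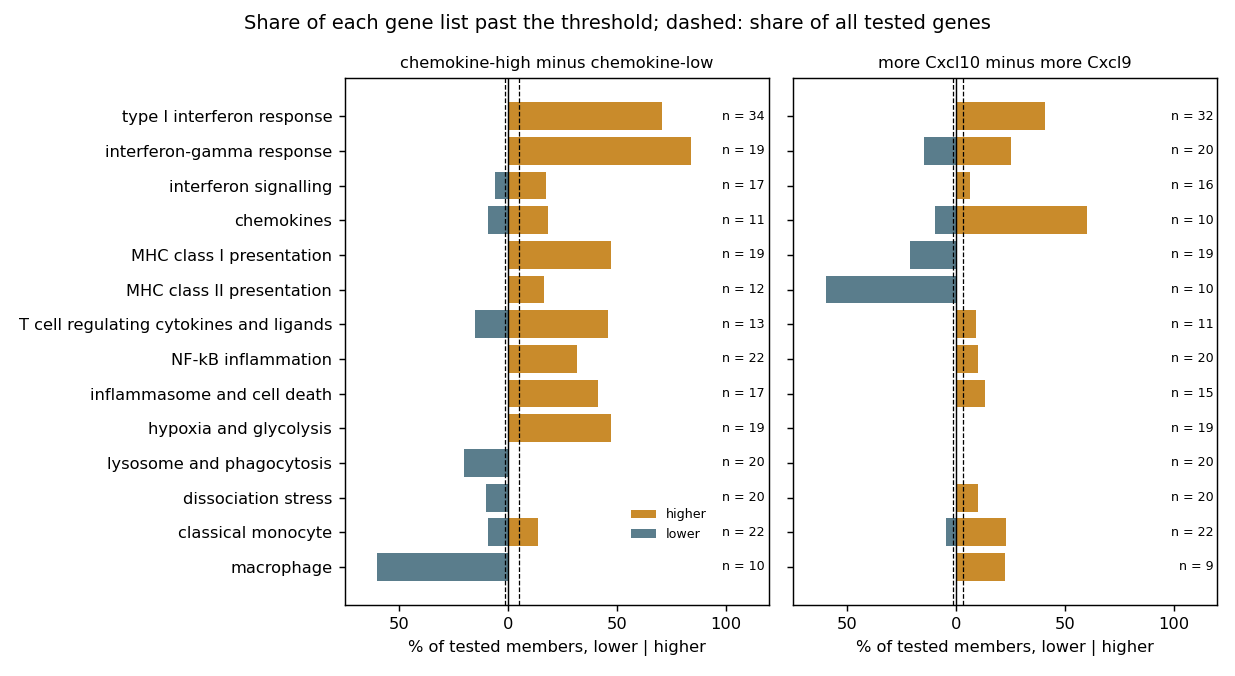
Bars give the percentage of the tested members of each gene list that were higher (right) or lower (left), n being the members tested, for chemokine-high minus chemokine-low cells (left panel) and for cells with more Cxcl10 minus cells with more Cxcl9 (right panel). Dashed lines mark the share of all tested genes, which was 5.22% higher and 1.29% lower on the left and 3.11% and 1.35% on the right.

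Since many cells held mainly one chemokine, the chemokine-high cells were also divided by which had more UMIs, and both groups were compared within the 4 libraries with at least 10 cells of each (BrM 2, BrM 3, MFP 1 and MFP 3), again without the genes of the rule. Of 3403 genes tested, 106 (3.11%) were higher and 46 (1.35%) lower in cells with more Cxcl10 (edgeR, adjusted p under 0.05). Those cells were higher in 6 of 10 other chemokine genes and 13 of 32 type I interferon genes, and the cells with more Cxcl9 in 6 of 10 class II genes and 4 of 19 class I genes. The count fell to 17 without MFP 3, to 35 without BrM 2 and to 53 without BrM 3. All 140 to 152 calls tested in those fits kept their direction, and 11 passed in every fit that left out 1 library.

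Of the tested chemokines that attract monocytes through Ccr2, Ccl2 and Ccl12 were higher beside Cxcl10 and Ccl7 did not pass. Ccl2 was at 856, 1077, 662 and 1352 CPM in cells with more Cxcl10 of BrM 2, BrM 3, MFP 1 and MFP 3, against 56.4, 89.5, 518 and 466 CPM in cells with more Cxcl9. The groups did not overlap, and the gap was narrowest in MFP 1 (log2 fold change 2.25, SE 0.44, adjusted p = 0.021). Ccl12, a related ligand, was at 207, 694, 231 and 696 CPM against 11.3, 104, 38.4 and 376 CPM (2.10, SE 0.36). Ccl7 was at 149, 89.6, 31.5 and 291 CPM against 16.9, 7.06, 144 and 124 CPM, the reverse order in MFP 1 (1.49, SE 0.53, adjusted p = 0.14). Ccl9 and Ccl6, ligands of Ccr1, rose by 1.98 and 1.73. In all, 6 of 10 tested chemokine genes were higher, 1 was lower and 3 did not pass. The lower one was Cxcl16, the ligand of Cxcr6, at 63.1 to 484 CPM against 700 to 1021 CPM in the 4 libraries (-1.42, SE 0.26). Among those that did not pass, Ccl5 was at 338, 406, 841 and 658 CPM beside Cxcl10 against 615, 1375, 777 and 1142 CPM beside Cxcl9 (-0.83, SE 0.24, adjusted p = 0.077), and Cxcl2 had a value of 1.57 (SE 0.46, adjusted p = 0.083).

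The interferon lists divided. Of 32 type I interferon genes, 13 were higher and 0 lower in cells with more Cxcl10, with a median of 0.84 against -0.01 for all tested genes. Slfn5, a Schlafen family gene, was at 965, 768, 1514 and 1103 CPM against 293, 363, 412 and 443 CPM (log2 fold change 1.51, SE 0.16, adjusted p = 0.0011). Ifit1, Ifit2, Ifit3 and Ifi209 rose by 1.79, 1.63, 1.75 and 1.39. Of 20 interferon-gamma genes, 5 were higher and 3 lower. Irgm1 and Igtp, GTPases that act on vacuoles of pathogens, each rose by 1.10 (SE 0.17), and Gbp5 by 1.07, whereas Gbp2 fell by 0.73 and Ciita, the master regulator of class II genes, by 1.18. ISRE matches lay in 25 of 84 windows (29.8%) of genes higher beside Cxcl10, in 3 of 33 (9.09%) of those higher beside Cxcl9 and in 138 of 2739 (5.04%) of all tested.

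Class II presentation went with Cxcl9, with 6 of 10 tested genes lower and 0 higher in cells with more Cxcl10. H2-Aa, a class II chain, was at 3218, 3672, 1598 and 4245 CPM in cells with more Cxcl10 and 7055, 5522, 3107 and 6224 CPM in cells with more Cxcl9 of the 4 libraries. It was lower beside Cxcl10 in each (log2 fold change -0.75, SE 0.12, adjusted p = 0.010). H2-Ab1, H2-Eb1, H2-DMa, H2-DMb1 and the invariant chain gene Cd74 fell by 0.93, 1.02, 0.91, 0.77 and 0.61. On the class I list, 4 of 19 genes were lower and 0 higher, all parts of the immunoproteasome or its activator. Psme2, of the activator, was at 424, 482, 315 and 405 CPM against 801, 848, 700 and 870 CPM, without overlap (-0.93, SE 0.13).

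Cfb, which encodes complement factor B, was at 243, 435, 63.1 and 216 CPM in cells with more Cxcl10 and at 998, 965, 1036 and 925 CPM in cells with more Cxcl9 (log2 fold change -1.96, SE 0.28, adjusted p = 0.0067). Dnase1l3, a secreted nuclease gene, was at 0 to 68.6 CPM against 112 to 299 CPM (-2.23, SE 0.43), and the integrin gene Itgax, which dendritic cells and some macrophages carry, fell by 1.47. The groups did not overlap in Cfb or Dnase1l3. Fn1, which encodes the matrix protein fibronectin, was at 356, 536, 652 and 379 CPM beside Cxcl10 against 84.6, 84.8, 153 and 143 CPM (2.09, SE 0.22, adjusted p = 0.0011). Vcan and F13a1, genes of classical monocytes, rose by 1.66 and 1.53. Spp1, which encodes osteopontin, was at 234, 336, 0 and 1349 CPM against 45.1, 130, 48.0 and 67.0 CPM, the reverse order in MFP 1 (2.49, SE 0.56, adjusted p = 0.032), and did not pass without MFP 3. In MFP 3 the neutrophil list summed to 930 CPM beside Cxcl10 and 172 CPM beside Cxcl9. The macrophage list was higher beside Cxcl10 in each of the 4 libraries, at 5594, 5912, 4648 and 4278 CPM against 5403, 3143, 3433 and 3377 CPM, with 2 of 9 tested members, Trem2 and Selenop, called higher. The NK list summed to 162, 145, 221 and 81.4 CPM beside Cxcl10 and 90.2, 170, 1506 and 79.7 CPM beside Cxcl9, far higher beside Cxcl9 in MFP 1. The dendritic cell list was higher beside Cxcl10 in each of the 4 libraries, at 947, 1029, 1146 and 754 CPM against 908, 859, 556 and 730 CPM. Its 2 tested members had positive values, the opposite of Itgax, and 0 passed. The part of these lists in the result was not tested.

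**Figure D4:**
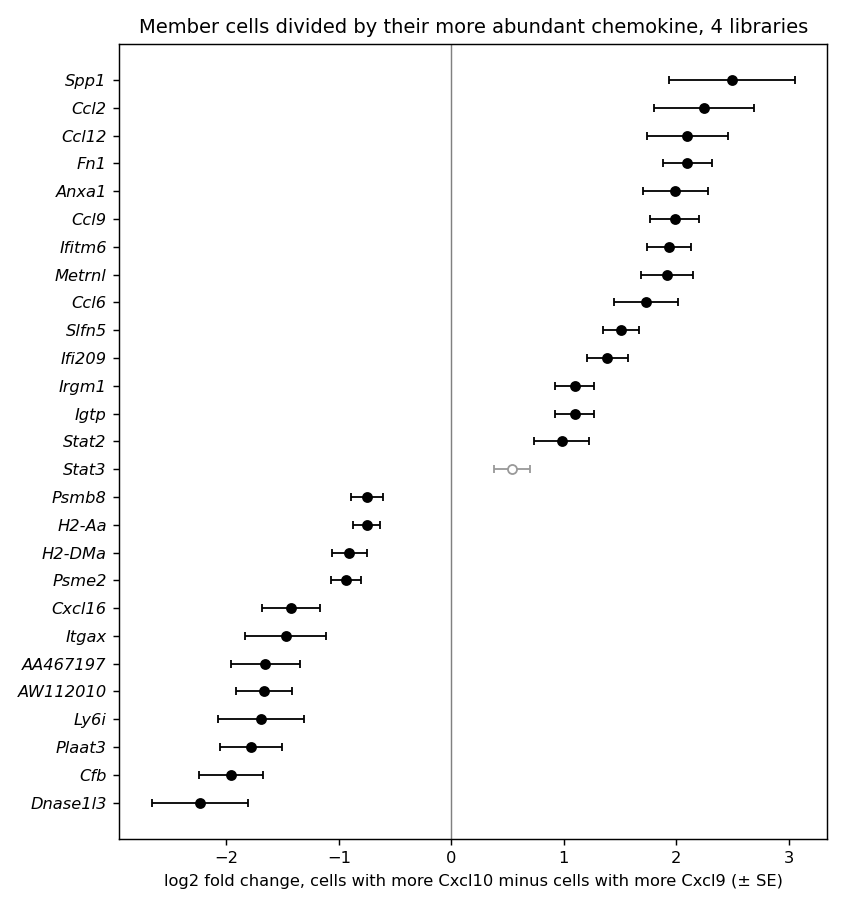
Points give the log2 fold change and bars its standard error for the genes named by rule, in cells with more Cxcl10 minus cells with more Cxcl9 over 4 libraries; filled points passed an adjusted p of 0.05 and the open point, Stat3, did not. Ccl2, Ccl12 and Fn1 lie above 2, while Cfb and Dnase1l3 lie near -2.

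Within the chemokine-high state, brain and mammary tumours were compared over 3 BrM and 2 MFP libraries, and 0 of 4770 tested genes (0%) passed by edgeR. The lowest adjusted p was 0.12, and 266 genes had an unadjusted p under 0.05 where 238 would fall by chance. DESeq2 called 1 gene, Ccl3. With a term for library kind, which separates BrM 1 and MFP 1 from the libraries rich in macrophages, 11 genes passed, 3 higher and 8 lower in BrM: Ccl17, Ccl3, Ccl4, Ccl7, Cxcl1, Cyp51, Dusp1, Fosb, Gm42418, S100a9 and Saa3. A gene that misses the threshold here is not shown to be alike at both sites, because the test rests on 5 libraries of 17 to 145 cells. The type I interferon list had a median of -0.09 over 34 genes (11 higher and 23 lower in BrM). The interferon-gamma list had a median of -0.19 over 20 genes (7 higher and 13 lower), against -0.0023 for all genes tested. Other lists also leaned by site with 0 genes passing. Of 19 hypoxia and glycolysis genes, 18 had lower and 1 a higher value in BrM (median -0.29). Of 11 chemokine genes, 9 were lower and 2 higher (median -0.45), while 9 of 12 class II genes were higher and 3 lower (median 0.16).

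The lowest p-values were among inflammatory chemokines and stress genes. Ccl4 was at 270, 235 and 453 CPM in BrM 1 to 3 and at 762, 463 and 1804 CPM in MFP 1 to 3 (log2 fold change BrM minus MFP -1.96, SE 0.34, adjusted p = 0.12). Ccl3 was at 131, 70.1 and 145 CPM in BrM and 271, 108 and 543 CPM in MFP (-1.81, SE 0.32, adjusted p = 0.12). MFP 3 had the highest value of both, and MFP 2, which was not tested, lay near BrM 3 for Ccl4 and within the BrM range for Ccl3. Fosb, an immediate early gene, was at 140, 120 and 86.4 CPM against 281, 262 and 296 CPM without overlap (-1.36, SE 0.24, adjusted p = 0.12), and Egr1 at 94.5, 32.6 and 72.7 CPM against 176, 92.6 and 233 CPM (-1.66, SE 0.33). Chemokine-low cells also held less Fosb in BrM, at 189, 179 and 138 CPM against 317, 502 and 430 CPM, without overlap. Egr1 was at 48.7, 64.3 and 80.5 CPM against 69.2, 131 and 183 CPM there, with overlap. No site test was run on chemokine-low cells alone. Saa3 and Ccl17 were chosen after their values were seen. Saa3, an acute phase gene, was at 45.0, 45.1 and 43.2 CPM in BrM and 5.02, 15.4 and 5.38 CPM in MFP (adjusted p = 0.12). Ccl17, a ligand of Ccr4, was at 13.5, 55.1 and 54.8 CPM in BrM and at 0, 0 and 1.34 CPM in MFP (adjusted p = 0.12). The MFP values of both genes, and that of Ccl17 in BrM 1, rest on few UMIs.

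Last, the chemokine-high minus chemokine-low difference itself was compared between sites. Of 6334 genes tested, 9 (0.142%) differed, all with a lower value of high minus low in BrM (edgeR, adjusted p 0.039 to 0.043). They were Ccl2, Ccl7 and Ccl12, ligands of Ccr2, the lysosomal genes Ctsd, Lgmn and Cd63, the interferon genes Isg20 and Oasl1, and Fth1, which encodes a ferritin chain. On the type I interferon list, 32 of 34 tested genes had a lower high minus low value in BrM and 2 a higher one. The median was -0.57, against -0.0071 for all genes tested. Within chemokine-high cells alone, the BrM minus MFP median of the type I list was -0.09. The interferon-gamma list had 13 of 23 lower and 10 higher, with a median of -0.015. Ccl12 was at 212, 120 and 430 CPM in chemokine-high cells of BrM 1 to 3 against 88.2, 182 and 269 CPM in chemokine-low cells. In MFP 1 and MFP 3 it was at 130 and 561 CPM against 14.4 and 73.8 CPM, a wider gap in both (difference of log2 fold changes -2.59, SE 0.42). Ctsd was at 94.5, 200 and 243 CPM against 350, 813 and 652 CPM in BrM and at 181 and 235 CPM against 245 and 270 CPM in MFP (-1.48, SE 0.24). Its chemokine-high values overlapped between sites and its chemokine-low values did not.

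Oasl1 was at 158, 143 and 188 CPM against 63.9, 82.2 and 89.5 CPM in BrM and at 80.3 and 206 CPM against 8.65 and 30.1 CPM in MFP (difference -1.83, SE 0.31), so it was higher in chemokine-high cells at both sites. Between sites, the Oasl1 values overlapped in chemokine-high cells and did not in chemokine-low cells. The same held for Isg20. In chemokine-low cells it was at 158, 131 and 152 CPM in BrM 1 to 3 and 43.2 and 57.6 CPM in MFP 1 and MFP 3. Ccl7 was lower in chemokine-high cells of each BrM library and higher in those of MFP 1 and MFP 3 (difference -1.86, SE 0.27). The counts were unstable. Of these 9 genes, 0 passed without BrM 2 or with a threshold of 10 chemokine UMIs per 10000, and 0 passed in every fit that left out 1 library. The macrophage list summed to 2856, 12856 and 11357 CPM in chemokine-low cells of BrM 1 to 3 and 4042 and 5001 CPM in those of MFP 1 and MFP 3, against 2565 to 5509 CPM in chemokine-high cells of these libraries. The microglia list was also uneven, at 231, 782 and 681 CPM in chemokine-low cells of BrM 1 to 3 and 144 and 234 CPM in those of MFP 1 and MFP 3. In chemokine-high cells it was at 149 to 378 CPM. All 4 of its tested genes had a lower high minus low value in BrM (median -1.44), and 0 passed. The part of the macrophage and microglia lists in these differences was not tested.

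**Figure D5:**
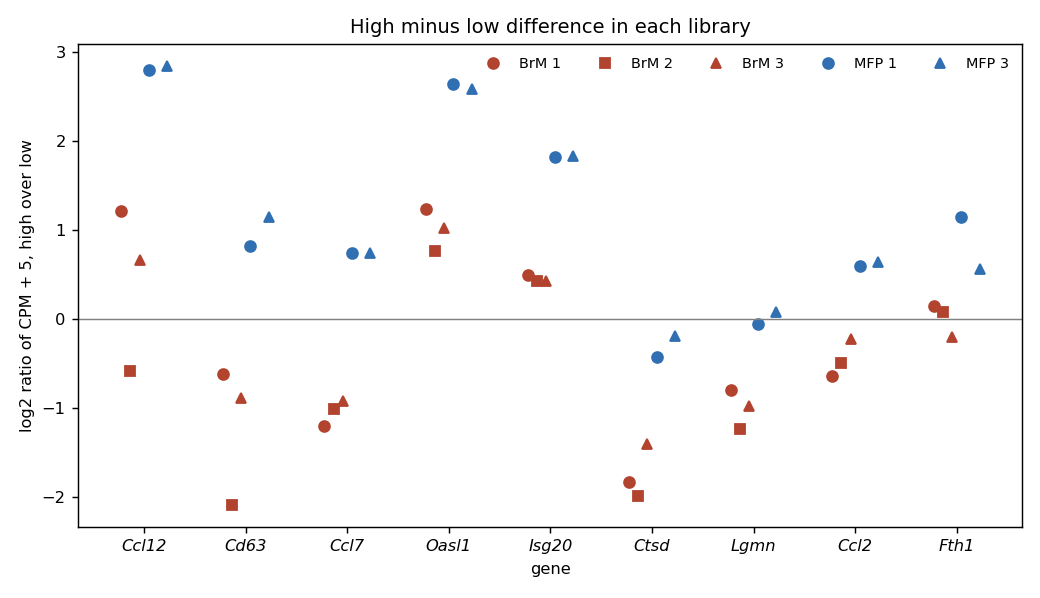
Each point is 1 library, with the log2 ratio of CPM + 5 in chemokine-high over chemokine-low cells on the vertical axis for the 9 genes whose difference varied with site; red marks BrM and blue MFP. In each gene both MFP points lie above the 3 BrM points.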

How the data were processed

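Leukocytes of 3 BrM and 3 MFP tumour libraries were measured by single-cell RNA sequencing. The authors deposited raw UMI counts per gene and barcode, made with Cell Ranger 4.0 on mm10 per the submitters' processing notes; the gene annotation release and any doublet removal were not given in the sources used here. In all, the barcode lists held 49518 barcodes, and those of 500 or more UMIs and 200 or more genes, with no more than 10% of UMIs mitochondrial, were kept. No clustering or normalization was used to choose cells, only the raw counts of 12 genes. The members and gene lists were chosen with earlier results of these data known. Library totals ran from 50692794 to 70944735 UMIs, and the chemokine-high cells of a library gave sums from which 1 UMI is worth at most 15.4 CPM (MFP 2).

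Counts were summed per library and group (at least 10 cells) and fitted with edgeR 4.0.16 (TMM scaling, its expression filter, quasi-likelihood test, library as a block for the comparisons within libraries, Benjamini-Hochberg adjustment over all genes tested, threshold 0.05), after a test on simulated data. The simulated libraries shared a single profile of means, so that test does not cover differences in composition between libraries. DESeq2 1.42.0 was an alternative. The labels name more than 1 sequencer without tying one to a library, so a sequencing batch could not be examined. R 4.3.3, Python 3.11.15 and scipy 1.17.1 were used. Shares were compared by an exact permutation test over libraries, with exact Clopper-Pearson 95% intervals. Doublets were scored per library by the Scrublet of scanpy 1.11.5. The threshold it set itself marked 0.0626% to 3.33% of cells, so the top 7% of scores, which held 14 chemokine-high and 18 chemokine-low cells, were removed only as an alternative. Other alternatives were thinning to 3000 UMIs, thresholds of 20 UMIs or 10 per 10000, at most 5% mitochondrial UMIs, other cell minimums, no filter, a replicate block and leaving out each library. The named genes were the 10 largest rises and 10 largest falls at 100 CPM or more, up to 3 called members of lowest p per list, all called genes for the site difference, and 8 rises, 8 falls and 2 members of the interferon, MHC and chemokine lists for the chemokine comparison; further called members of a list are named with their fold change only. Some items are not reported here.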

Additional observations from a re-analysis of the deposited data

Results flagged for a closer look

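The chemokine-high minus chemokine-low difference varied with tumour site in 9 genes, by the test of the difference itself (edgeR, adjusted p 0.039 to 0.043). As BrM minus MFP on the log2 scale it was -2.59 for Ccl12, -2.50 for Cd63, -1.86 for Ccl7, -1.83 for Oasl1, -1.50 for Isg20, -1.48 for Ctsd, -1.11 for Lgmn, -1.10 for Ccl2 and -0.88 for Fth1. Without BrM 2, 0 of these genes passed, without MFP 1 none of them did (Cxcl1 alone was called) and without MFP 3 Fth1 alone did. No group held enough libraries for the check of single outlying values.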

How the results depend on the processing

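Each library of a group holds 7 to 145 chemokine-high cells, which limits what low genes can show. The chemokine-high minus chemokine-low comparison called 348 genes, 213 with DESeq2, 526 with no expression filter, 181 with cells thinned to 3000 UMIs (2596 genes tested) and 181 in BrM 2, BrM 3 and MFP 3 alone, the last chosen after seeing the data; leaving out 1 library gave 191 to 275 (191 without MFP 3). The comparison by the more abundant chemokine called 152, 91 with DESeq2, 345 with no filter, 83 thinned (added after seeing the data) and 17 to 154 without 1 library. The site comparison called 0, 1 with DESeq2 (Ccl3), 42 with no filter, 1 with at least 20 cells (Ccl17), 1 without high doublet scores (Ccl4), 11 with library kind (rich or poor in myeloid cells) as a term and 0 to 16 without 1 library, the 16 without MFP 1. With the replicate block it called 8 (Ccl17, Ccl3, Ccl4, Ccl7, Cxcl1, Cyp51, Gm42418 and S100a9). Replicate numbers 1 and 3 occurred at both sites and deviations correlated by 0.19 and 0.14. The differently numbered BrM 2 and MFP 3 also correlated by 0.14. With 2 pairs and no statement in the labels, the numbers are not taken as pairs. The difference of differences called 9, 3 with DESeq2 (Ccl12, Ccl4 and Cd63), 86 with no filter, 21 with at least 20 cells, 22 without high doublet scores, 19 at a threshold of 20 UMIs, 0 at 10 per 10000 UMIs, 15 without cells holding T and NK transcripts (added after seeing the data) and 0 to 21 without 1 library. The site difference in the chemokine-high share was 6.69 percentage points, 4.90 to 12.2 over the alternatives for cells and 1.96 to 10.1 without 1 library. The causes were not tested.

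Direction turned in few settings of named genes. As ranges over the fits that left out 1 library, the site values ran from -1.54 to 0.10 for Gbp6, -2.10 to 2.88 for Spp1, -1.92 to 0.77 for Hilpda, -0.14 to 0.81 for Stmn1, -0.81 to 0.065 for Tuba1b, -1.62 to 1.08 for Cd24a, -3.14 to 6.32 for S100a9, -0.94 to 3.46 for Il1r2, -0.95 to 3.03 for Trbc1, -1.16 to 6.38 for Trbc2 and -0.36 to 0.80 for Klrk1, several against libraries at or near 0, so that they are no bounds. Klrk1 was also -0.35 with at least 20 cells, Cd24a 0.030 at a threshold of 20 UMIs and Trbc2 -0.031 with DESeq2. In chemokine-high minus chemokine-low cells Il1r2 ran from -0.048 to 0.70 without 1 library, and Trbc2 was 0.18 at 10 per 10000 UMIs, where the difference of differences of Ccl7 was 0.017. None of these but Ccl7 had passed the test.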
